A study of Ascaris suum with 28 samples.

Results

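Between 64 h and 96 h of incubation, embryos of the pig roundworm Ascaris suum divide from 2-4 cells to 10-26 cells. The poly(A) RNA of this step was compared between 1 library at 64 h and 1 library at 96 h, for all 15399 gene identifiers of the deposited table. Values were RPKM, a read count scaled by the authors to gene length and library size, and differences were taken on log2(RPKM + 1). A gene was counted as lower or higher at 96 h where this difference was at least 2, which is 4-fold on RPKM + 1, and where at least 1 of the 2 libraries reached RPKM 10. Fall and rise over the step mean such a difference between 2 single libraries, with no test. Of the 7072 genes that met the RPKM condition, 486 were lower and 154 were higher, together 640 genes of the 15399. The median of the lower genes dropped from RPKM 28.7 at 64 h to 3.7 at 96 h and 1.2 at 116 h. The median of the higher genes was RPKM 2.8 at 64 h, 26.3 at 96 h and 27.7 at 116 h.

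An animal egg carries RNAs that its mother made, and these serve the embryo until its own genome is transcribed. Maternal RNAs are then cleared by embryo-coded and maternal pathways, among them deadenylation, in which the poly(A) tail is shortened before the RNA body is degraded. Nematode embryos cleave in a fixed pattern of lineages, so the cells of this step already have separate fates. Ascaris eggs develop slowly after they leave the host, which spreads the first cleavages over days, and in this species DNA is discarded from the presomatic cells during the early divisions.

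All worms came from a wild population of North America, and each library was made from embryos of a large number of females, so it is a pool and not an individual. Eggs from the last uterus region were taken as 0 h and incubated at 30 °C. The 13 poly(A) libraries used here held oocytes with wall, zygotes of uterus regions 1 to 4, embryos at 24 h (1 cell), 46 h (1-2 cells), 64 h (2-4 cells), 96 h (10-26 cells), 116 h (32-64 cells) and day 7 (about 256 cells), and L1 and L2 larvae. Polysome gradients of days 0, 1 (1 cell), 3 (4-8 cells), 5 (32-64 cells) and 7 (about 256 cells), each in a free, a middle and a heavy fraction, were a second preparation. Every stage had 1 library per preparation, so the step itself has no replicate check and no p-value.

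RPKM totals were 380671 at 64 h, 375270 at 96 h and 373500 at 116 h, and 12.98%, 14.1% and 17.0% of the genes were listed at 0. Read depth is unknown. The oocyte and 64 h columns were taken as poly(A) libraries by inference, because their names fit other libraries of the same stage as well. Identifiers were not paired with gene names, so stage and lineage markers could not be looked up, and no role is given to any identifier. In bulk libraries, fewer cells of a type and less RNA per cell cannot be told apart, and in poly(A) libraries a lost RNA and a lost poly(A) tail cannot be told apart.

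The 64 h library stood apart from its neighbours in 1 respect that touches the lower genes. A set of 99 of the 7072 genes was raised at least 2-fold both at 64 h over 46 h and in zygote region 3 over the mean of regions 2 and 4 on the log2 scale. Of these, 45 were among the 486 lower genes and 1 was among the 154 higher genes. The median of the 45 was RPKM 74.7 in region 3, against 22.7 in region 2 and 20.3 in region 4, and it was 81.7 at 64 h, against 20.6 at 46 h and 8.4 at 96 h. The day 3 fractions, from embryos of nearly the same age, held medians of 6.5 (free), 20.2 (middle) and 4.7 (heavy) for these 45 genes. On day 1 the fractions held 11.8, 25.4 and 8.1, against 19.6 in the 24 h library. The part of the 64 h library in their fall was not tested, and counts that rest on them are given with and without them. Across the 7072 genes, the excess in region 3 and the 46 h to 64 h difference had a Pearson r of 0.557. The 2 values have no library in common, and r is a description over genes of single libraries.

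The lower genes were 6.87% and the higher genes 2.18% of the 7072. The median log2 difference was -2.60 over the lower genes and 2.61 over the higher genes, against 0.19 over the 7072 and 0 over all genes. Among the lower genes, 356 had a log2 difference of 2 to under 3 in size, 108 of 3 to under 4 and 22 of 4 or more. Among the higher genes these counts were 99, 31 and 24. The excess of lower over higher genes depended on the size asked for. At 8-fold, 130 genes were lower and 55 higher, while at 2-fold 1114 were lower and 1003 higher. Near the threshold, 34 lower genes lay within 0.1 log2 units inside it and 53 genes within 0.1 outside, the nearest of each at -2.005 and -1.995. For higher genes these counts were 19 and 26, with the nearest gene outside at 1.99. Without the 45 genes raised in region 3 and at 64 h, 441 genes were lower.

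**Figure D1:**
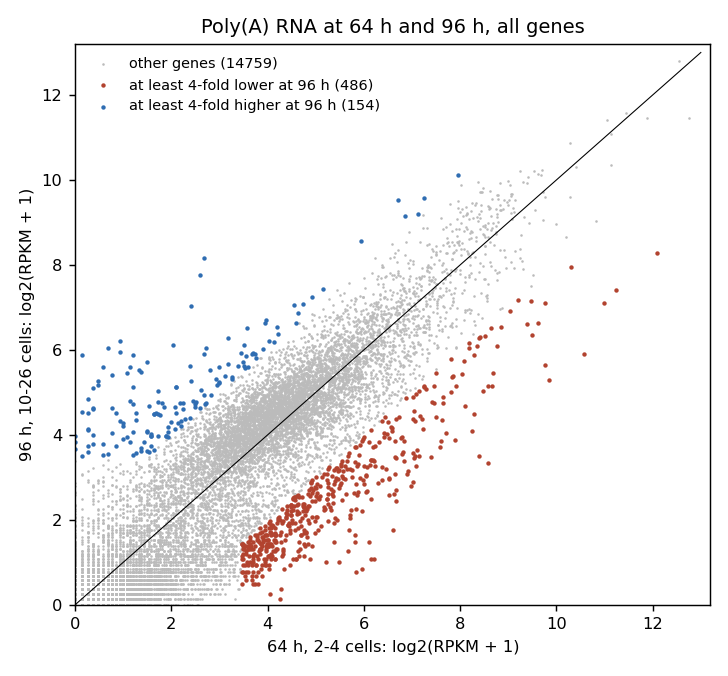
Level of every gene in the 64 h library (horizontal axis) against the 96 h library (vertical axis), both as log2(RPKM + 1), with 1 point per gene and the diagonal marking equal levels. The rule places all 486 lower genes (red) at RPKM 10 or more at 64 h, over which they reach to above RPKM 1000, and 30 of the 154 higher genes (blue) were at RPKM 10 or more at 64 h.

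The lower genes included abundant RNAs. Their shares by 64 h level are a description, since they use the same 2 libraries as the rule. On RPKM + 1 a 4-fold fall is also harder to reach at a low level, and any error at 64 h enters both readings. Of the genes at RPKM 10 to under 20 at 64 h, 164 of 2323 (7.06%) were lower at 96 h, and at RPKM 20 to under 50 the count was 159 of 2242 (7.09%). The share was 9.18% (76 of 828) at RPKM 50 to under 100 and 12.3% (82 of 665) at RPKM 100 to under 1000. From RPKM 1000 on it was 5 of 18 genes, and these 5 alone made up 25.2% of the summed RPKM of the lower genes at 64 h. Of the RPKM total, the lower genes together held 12.1%, 1.48% and 0.638% at 64, 96 and 116 h. The higher genes held 0.405%, 2.69% and 3.46%. None of the lower genes was listed at 0 at 96 h, and 103 were still at RPKM 10 or more. The direction of both shares from 64 h to 96 h is set by the rule, and RPKM gives a part of a library, not an amount of RNA.

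The largest persisting fall was in ASU_11875, which is 1 of the 45 genes raised in region 3 and at 64 h. Its level was RPKM 51.2 in the oocyte, 499.4, 726 and 1895.7 in zygote regions 1 to 3 and 505.4 in region 4. It was 148.7 at 24 h, 123.5 at 46 h, 379.4 at 64 h, 9.1 at 96 h, 32.3 at 116 h and 70.3 on day 7, a log2 difference of -5.24 over the step, and then 13.9 in L1 and 3 in L2. The 96 h library was thus the lowest of all embryo libraries for this gene, and the libraries on both sides of it were higher. From 46 h to 116 h its log2 difference was -1.90, under 4-fold, so its place and its persistence lean on the 64 h level. Its fractions were less far apart: they held RPKM 116.6 (free), 189.1 (middle) and 107.2 (heavy) on day 3, and 76.8, 78.5 and 72 on day 5.

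The other named fall was in ASU_06141, which was at RPKM 0.4 in the oocyte and at 350.5, 561.8 and 1546 in zygote regions 1 to 3. Up to 116 h it was lower in each later stage but 64 h: 140.3 in region 4, 59.5 at 24 h, 58.4 at 46 h, 73.2 at 64 h, 1.1 at 96 h and 0.3 at 116 h. This RNA was therefore not one that the oocyte already held at this level, and it was high for the first time in the uterus. It was high again in larvae, at RPKM 45.2 in L1 and 216.9 in L2. Its day 3 fractions held RPKM 20.6, 44.6 and 4.3, and its day 5 fractions 2.2, 3.3 and 1.

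Among the higher genes, ASU_10777 had the largest persisting rise, a log2 difference of 5.74. It was at RPKM 3.1 in the oocyte, between 0.3 and 1.4 in the zygote, 24 h and 46 h libraries, 0.1 at 64 h, 57.6 at 96 h, 48.3 at 116 h, 22.7 on day 7, 38.3 in L1 and 22.5 in L2. All libraries from 96 h on were above all libraries before. ASU_03884, with a difference of 5.47, peaked and went back: RPKM 15.2 in the oocyte, 31.6, 69.6, 81 and 44.3 in regions 1 to 4, 17.6 at 24 h, 10.7 at 46 h, 5.4 at 64 h, 283.3 at 96 h, 52.9 at 116 h and 5.7 on day 7, with 2.6 in L1 and a listed 0 in L2. Its 96 h level was the highest of the 13 libraries, and its 64 h level was below that of every earlier library.

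**Figure D2:**
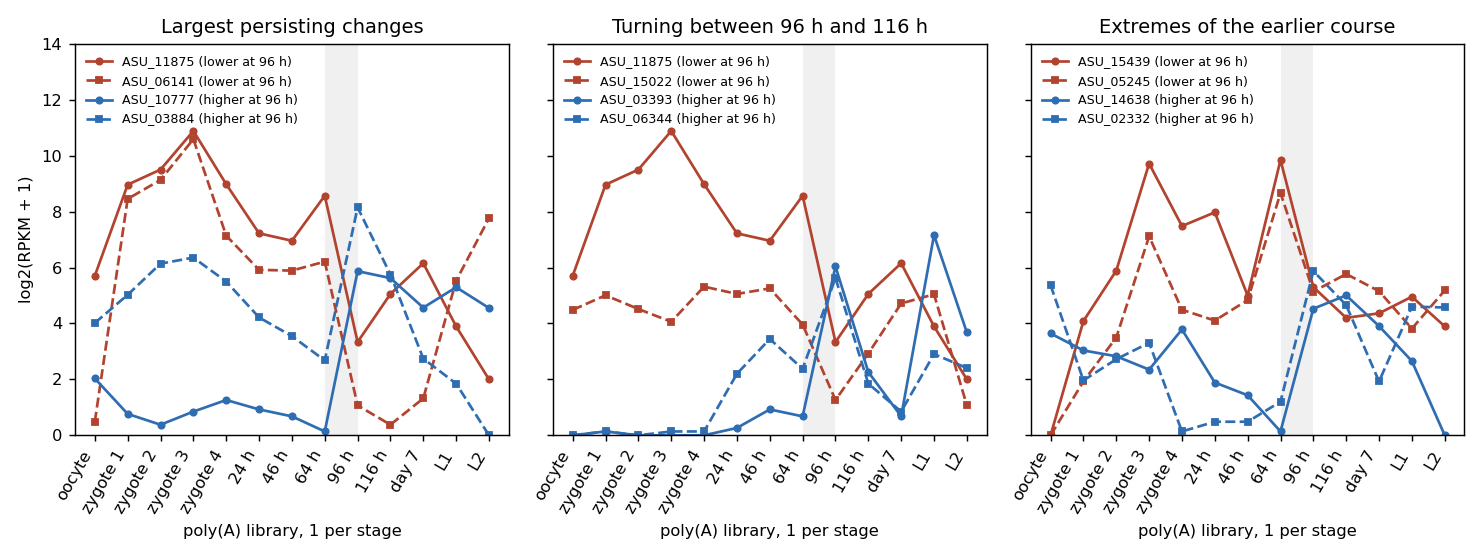
Level of each named gene as log2(RPKM + 1) (vertical axis) in the 13 poly(A) libraries in order of development (horizontal axis), 1 library per point, with the 64 h to 96 h step shaded. Left, the 2 largest persisting falls and rises; centre, genes that turned between 96 h and 116 h; right, lower genes under RPKM 1 in the oocyte and higher genes at RPKM 10 or more in the oocyte, where the 2 lower genes peak in region 3 and at 64 h.

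To separate RNA of maternal origin from RNA that appeared in the embryo, genes were split by the oocyte library into maternal (RPKM 10 or more), intermediate (RPKM 1 to under 10) and low (under RPKM 1). Of the lower genes, 325 (66.9%) were maternal, 93 (19.1%) intermediate and 68 (13.99%) low in the oocyte. Of the higher genes, 36 (23.4%) were maternal, 56 (36.4%) intermediate and 62 (40.3%) low. Of all 6076 genes at RPKM 10 at 64 h, 69.5% were maternal, 25.7% intermediate and 4.87% low, so the maternal share of the lower genes was close to this background. Of all genes at RPKM 10 at 96 h, 65.96% were maternal, 29.2% intermediate and 4.85% low. Such a class reads only whether the library of oocytes with wall held the RNA, and the part of the wall in it was not tested. An RNA that the embryo also transcribes keeps its maternal class. With the zygote region 1 library in place of the oocyte library, 362 lower genes were at RPKM 10 or more. By that library, 57 higher genes were under RPKM 1.

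Read the other way, the loss touched a minority of the maternal RNAs. Of the genes at RPKM 10 at 64 h, 325 of 4220 maternal genes (7.70%), 93 of 1560 intermediate genes (5.96%) and 68 of 296 genes low in the oocyte (23.0%) were lower at 96 h. Without the genes raised in both region 3 and at 64 h, these shares were 7.33%, 5.61% and 18.2%. The order was also found with 46 h and 116 h, which had no part in the choice of the lower genes. Of the genes at RPKM 10 at 46 h, 842 of 4848 maternal (17.4%), 252 of 1851 intermediate (13.6%) and 153 of 310 low genes (49.4%) were at least 4-fold lower at 116 h. The first library of each reading picks its genes, so any error in it raises these shares. The part of this in the order was not tested. The share was thus highest among the RNAs that were low in the oocyte in both readings, with no test of that order.

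Over all 5958 genes at RPKM 10 in the oocyte, the count at least 4-fold below the oocyte was 254 in zygote region 4, 624 at 24 h, 792 at 46 h, 1325 at 64 h, 1622 at 96 h and 1736 at 116 h. Against 64 h, 464 genes were newly past this point at 96 h, of which 177 were among the lower genes, and 167 were past it at 64 h and no longer at 96 h, of which 15 were among the higher genes. The gain in the number of such genes was larger from 46 h to 64 h than over this step. However, the median log2 difference over the 7072 genes was -0.27 from 46 h to 64 h, against 0.19 from 64 h to 96 h. More genes were also listed at 0 at 64 h than at 46 h. The part of this wider shift in the larger gain was not tested.

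The 325 maternal genes that fell had a median of RPKM 51.2 in the oocyte, 73.2 in region 4, 51.6 at 24 h, 49.9 at 46 h, 31.2 at 64 h, 4.1 at 96 h, 1.3 at 116 h and 2 on day 7. Their median thus stayed at or above the oocyte level until 24 h, was lower at 64 h, and was at its lowest at 116 h. At 64 h, 77 of them were already at least 4-fold below the oocyte and 120 were still at or above it. At 96 h, 254 were 4-fold below. Maternal genes that had already fallen at least 2-fold from 24 h to 64 h were lower at 96 h in 116 of 593 cases (19.6%), against 174 of 3326 (5.23%) of those that had moved less than 2-fold and 35 of 301 (11.6%) of those that had risen at least 2-fold. A gain at 64 h and a loss at 96 h share the 64 h library, so the last share is raised by any error in it.

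Per 10 h, the median log2 difference of the maternal lower genes was -0.26 from 0 to 24 h, -0.01 from 24 to 46 h, -0.32 from 46 to 64 h, -0.82 from 64 to 96 h and -0.52 from 96 to 116 h. The interval 64 to 96 h chose the genes, and both neighbouring intervals share a library with it, so only the values up to 46 h are independent of the choice. Over the 7072 genes these medians ran from -0.15 to 0.06.

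The 68 lower genes that were low in the oocyte followed another course. Their median was RPKM 0.05 in the oocyte, 1.7, 2.8, 5.4 and 3.2 in zygote regions 1 to 4, 13.3 at 24 h, 13.9 at 46 h, 25.5 at 64 h, 2.45 at 96 h and 0.95 at 116 h. Their median was highest at 64 h, where the rule asked for a high level, and it was 3.15 in L1, about that of region 4. By the library in which they first reached RPKM 10, 31 of 116 genes first seen in the uterus (26.7%), 14 of 78 first seen at 24 h (17.9%), 6 of 34 first seen at 46 h (17.6%) and 17 of 68 first seen at 64 h (25%) were lower at 96 h.

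The 2 of these genes with the highest level at 64 h were ASU_15439 and ASU_05245, and both had the rise in region 3 and at 64 h described above. ASU_15439 was listed at 0 in the oocyte and was at RPKM 16, 58.3, 843.2 and 178.3 in regions 1 to 4, 250.9 at 24 h, 31 at 46 h, 921.5 at 64 h, 38.4 at 96 h and 17.4 at 116 h. ASU_05245 was listed at 0 in the oocyte and was at RPKM 2.8, 10.3, 137.8 and 21.5 in regions 1 to 4, 16.2 at 24 h, 27.6 at 46 h, 405.4 at 64 h, 34.3 at 96 h and 53.6 at 116 h. For both genes the 96 h level was slightly above the 46 h level, with log2 differences of 0.30 and 0.30 from 46 h to 96 h. ASU_15439 was at RPKM 250.9 at 24 h but already at 31 at 46 h. The fall of both genes over the step thus rests on the 64 h level. None of the 3 day 3 fractions was above RPKM 12.6 for ASU_15439 or above RPKM 6.3 for ASU_05245. On the other days no fraction was above RPKM 10.6 for ASU_05245. For ASU_15439 the fractions held at most RPKM 3.5 on day 1, but up to 53 on day 0 and 27.2 on day 5. On day 7 they held RPKM 66.7 (free), 67.3 (middle) and 48.9 (heavy), against 19.6 in the day 7 poly(A) library.

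**Figure D3:**
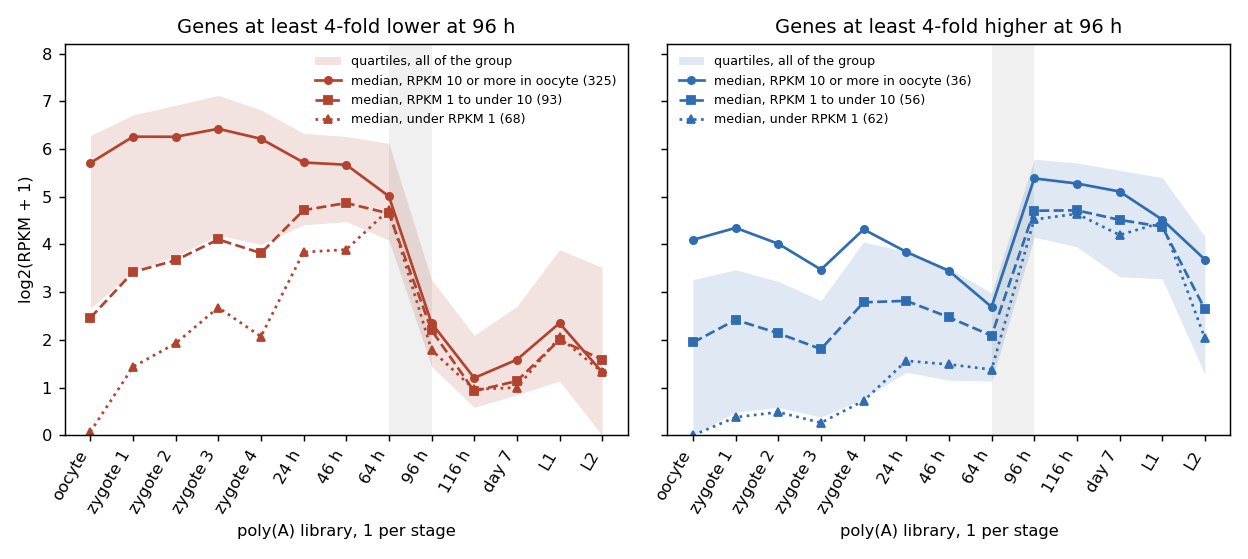
Median log2(RPKM + 1) (vertical axis) of the lower genes (left) and higher genes (right) in the 13 poly(A) libraries (horizontal axis), split by oocyte level, with the number of genes in parentheses. Shading around the lines spans the quartiles of the whole group and the grey band marks the step; the median of the maternal lower genes drops from RPKM 31.2 to 4.1, and that of the 62 higher genes low in the oocyte is 22 at 96 h and 17.4 on day 7.

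From 46 h to 64 h, 120 of the 486 lower genes had already fallen at least 2-fold, 286 moved less than 2-fold and 80 rose at least 2-fold, 17 of them 4-fold. The highest of the 8 libraries up to 64 h was zygote region 3 for 112 lower genes, 64 h for 107, 46 h for 70, oocyte for 69, region 4 for 52, region 1 for 32, 24 h for 28 and region 2 for 16. Of all 6076 genes at RPKM 10 at 64 h, 452 had their highest value in region 3, 1286 at 64 h, 1403 at 46 h and 895 in the oocyte. The rule favours a high 64 h level, and these counts are a description. The 120 early fallers were the more abundant in the oocyte, with a median of RPKM 74.9 there, against 26.95 over all lower genes, then 60.3 at 46 h, 22.3 at 64 h and 2.8 at 96 h.

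New RNAs were fewer. Of the 154 higher genes, 79 were under RPKM 10 in all 8 libraries up to 64 h, 28 under RPKM 2 and 12 under RPKM 1. In all, 277 genes reached RPKM 10 for the first time at 96 h, and these 79 were the ones among them at least 4-fold above 64 h. At a lower level, 154 genes were under RPKM 1 in all 8 earlier libraries and at RPKM 1 or more at 96 h, and 109 of them were also at RPKM 1 or more at 116 h. Among genes at RPKM 10 at 96 h, 62 of 304 that were low in the oocyte (20.4%) had risen 4-fold, against 56 of 1831 intermediate (3.06%) and 36 of 4137 maternal genes (0.870%).

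The 62 higher genes that were low in the oocyte had a median of RPKM 0 in the oocyte, 0.65 in region 4, 1.95 at 24 h, 1.8 at 46 h, 1.6 at 64 h, 22 at 96 h, 24 at 116 h and 17.4 on day 7. They were flat and near RPKM 2 from 24 h to 64 h before the rise. The 56 intermediate genes had medians of RPKM 2.85 in the oocyte, 6.05 at 24 h, 3.25 at 64 h, 25.1 at 96 h and 25.3 at 116 h.

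Higher genes of the maternal class were 36 in all. Their median was RPKM 16.1 in the oocyte, 18.9 in region 4, 13.4 at 24 h, 9.9 at 46 h, 5.45 at 64 h, 40.8 at 96 h and 37.8 at 116 h. At 64 h, 24 of the 36 were at least 2-fold below the oocyte, and at 96 h 30 were above the oocyte level. The rule asks for a low 64 h and a high 96 h level, so only the earlier values are independent of it.

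The 2 of these genes with the lowest level at 64 h were ASU_14638 and ASU_02332. ASU_14638 was at RPKM 11.5 in the oocyte, 7.2, 6.1, 4.1 and 12.8 in regions 1 to 4, 2.7 at 24 h, 1.7 at 46 h, 0.1 at 64 h, 22.1 at 96 h, 31.1 at 116 h and 14 on day 7. ASU_02332 was at RPKM 40.4 in the oocyte, 2.9, 5.6, 8.9 and 0.1 in regions 1 to 4, 0.4 at 24 h and at 46 h, 1.3 at 64 h, 57.7 at 96 h and 24.2 at 116 h. ASU_14638 was below its oocyte level in regions 1 to 3, above it in region 4 and low from 24 h to 64 h, whereas ASU_02332 was below its oocyte level in all 4 regions. Both were above their oocyte level at 96 h.

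The library at 116 h, which was not used to choose the genes, showed which changes lasted. Of the 486 lower genes, 469 (96.5%) were still at least 4-fold below 64 h, 14 were between 2- and 4-fold and 3 were back within 2-fold. Of the 154 higher genes, 113 (73.4%) were still at least 4-fold above 64 h, 27 were between and 14 were back. These counts compare 2 libraries with the same 64 h library, so an error in it stays in both. From 96 h to 116 h, which does not use it, 435 lower genes went further down and 47 went up. The same count was not made over all genes, and the median log2 difference over the 7072 genes was -0.11 in this interval. By the 4-fold rule 32 of the lower genes were lower at 116 h and none was higher. Of 6604 genes at RPKM 10, 2.27% were lower and 0.984% higher in this interval. Only 103 of the lower genes were at RPKM 10 or more at 96 h and 63 at 116 h. Most of the 486 could therefore not be called, and the 32 are not a share of 486 to set beside these percentages. The median log2 difference from 96 h to 116 h was -1 over the lower genes and -0.10 over the higher genes, against -0.05 over the 6604.

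At 116 h, 220 lower genes were under RPKM 1, against 35 at 96 h. Later, 428 of the 486 were still 4-fold below 64 h on day 7, 341 in L1 and 344 in L2, while 25, 91 and 82 were within 2-fold of it or above. The number at RPKM 10 or more was 103 at 96 h, 63 at 116 h, 86 on day 7 and 151 in L1, so more of these RNAs were at this level in L1 than at 96 h.

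By origin of the higher genes, 52 of 62 genes low in the oocyte, 38 of 56 intermediate and 23 of 36 maternal genes were still 4-fold above 64 h at 116 h. From 96 h to 116 h, 68 higher genes rose further and 86 fell, a count that was not made over all genes. Of the higher genes, 14 were at least 4-fold lower and 2 at least 4-fold higher, where 2.27% and 0.984% of 6604 genes were. On day 7, 88 higher genes were still 4-fold above 64 h, in L1 86 and in L2 36. The 96 h library was the highest of the 13 for 54 of them, 116 h for 28, L1 for 26 and day 7 for 23. The 96 h level was thus the highest for some of these RNAs, while others were higher later. The rule asks for a high 96 h level, which favours a later fall and a highest value at 96 h, so these counts are a description.

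The higher genes with the largest fall from 96 h to 116 h were ASU_03393 and ASU_06344. ASU_03393 was at RPKM 0.9 or less in every library up to 64 h, 64.9 at 96 h, 3.8 at 116 h, 0.6 on day 7 and 142.2 in L1. ASU_06344 was at RPKM 3.6 at 24 h, 9.9 at 46 h, 4.2 at 64 h, 48.4 at 96 h and 2.6 at 116 h. Both had a single high embryo library, although for ASU_03393 the heavy fraction was also raised, at RPKM 41.6 on day 3 and 27.3 on day 5 against 0.5 on day 1.

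On the lower side the largest returns were in ASU_11875, given above, and ASU_15022. ASU_15022 was at RPKM 21.4 in the oocyte, 32.3 at 24 h, 37.2 at 46 h, 14.6 at 64 h, 1.4 at 96 h, 6.6 at 116 h, 25.3 on day 7 and 32 in L1. Its low level was limited to 96 h and 116 h among the embryo poly(A) libraries, and L2, at RPKM 1.1, was low again. Its fractions held RPKM 1.6 (free), 13.7 (middle) and 5 (heavy) on day 3. On day 5, also at 32-64 cells, they were higher, at RPKM 3.1, 21.3 and 18.1, without scaling to the fraction totals.

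Because 1 library starts and 1 library ends the step, the genes were also read in the libraries on either side, 46 h and 116 h. Of the 486 lower genes, 413 (85.0%) were at least 4-fold lower at 116 h than at 46 h with RPKM 10 in either, where 16.1% of 7740 genes were. Of the 154 higher genes, 85 (55.2%) were at least 4-fold higher, where 3.53% were. The median log2 differences were -4.06 and 2.25, against -0.23 over the 7740. Against 46 h, 379 lower genes (78.0%) and 96 higher genes (62.3%) were 4-fold apart at 96 h. Against both 24 h and 46 h the counts were 347 (71.4%) and 86 (55.8%), so the call of the remaining genes rests in part on the 64 h level.

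Polysome gradients gave a second reading at days 3 and 5. The lower genes held 19.1% (free), 16.6% (middle) and 14.3% (heavy) of the RPKM totals on day 1, 8.73%, 7.46% and 5.64% on day 3, and 0.968%, 0.988% and 1.13% on day 5. The higher genes held 0.328%, 0.309% and 0.442% on day 1, 0.577%, 0.648% and 1.22% on day 3, and 1.63%, 2.46% and 3.91% on day 5. In poly(A) RNA the share of the lower genes was 12.5% at 24 h, 11.9% at 46 h and 12.1% at 64 h, so the day 3 fractions lay between the 64 h and 96 h values. All 3 fractions moved in the same direction as the poly(A) libraries.

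**Figure D4:**
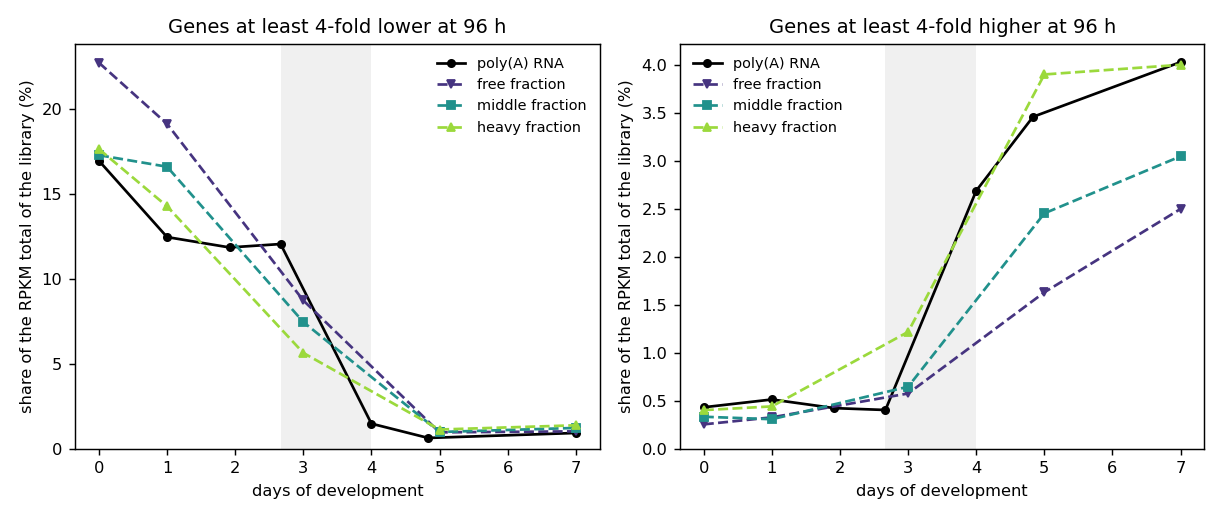
Share of the RPKM total of each library (vertical axis, %) held by the lower genes (left) and the higher genes (right) over days of development (horizontal axis), 1 library per point, with the 64 h to 96 h step shaded. Poly(A) RNA is the solid line and the free, middle and heavy gradient fractions are dashed; the lower genes drop to 1.48% of poly(A) RNA at 96 h, and the heavy fraction of day 3 holds 1.22% for the higher genes against 0.577% in the free fraction.

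Within the gradients, fraction totals ran from 236086 to 918364 RPKM, so gene groups were compared with the 7072 genes of the same fractions and, for changes over time, after scaling each fraction to its total. From day 3 to day 5, 477 of the 486 lower genes went down in the free, 472 in the middle and 439 in the heavy fraction, where 6032, 3028 and 2765 of the 7072 genes did. The higher genes went up in 100, 131 and 123 of 154 cases, where 1022, 4041 and 4304 of the 7072 genes did. The free fraction thus fell for most genes on this scale, while in the middle and heavy fractions a smaller share of the 7072 than of the lower genes went down.

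The lower genes were also placed lighter in the gradient before they were lost. Their median log2 difference of heavy minus free was -0.93, -1 and -1.16 on days 0, 1 and 3, which relative to the median of the 7072 genes is -0.83, -1.46 and -2.03. By day 5 it was 0.04, or -1.77 relative to that median, and at day 7 it was 0.22. For the higher genes the values on the 5 days were -0.20, -0.26, 0.33, 1.13 and 0.82, which relative to the median of the 7072 lie between -0.72 and -0.10. For middle minus free, the medians relative to the 7072 genes on the 5 days were -0.66, -0.67, -0.96, -1.77 and -1.20 for the lower genes, and -0.66, -1.19, -0.90, -1.04 and -0.62 for the higher genes. Both groups thus lay on the light side of the 7072 genes on each of the 5 days by both measures. On days 0 and 1 the higher genes had fraction medians of only RPKM 1.6 to 4.5. The lower genes had fraction medians of RPKM 2.75 to 6.6 on days 5 and 7. At such levels the added 1 shrinks log2 differences towards 0, and its part in these positions was not tested. Which group lay further to the light side depended on the measure on day 0 and day 1. With 1 gradient per day these are descriptions of those gradients.

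A test was possible only across the flanking stages, since the authors treat the polysome and the poly(A) sample of a stage as replicates. A limma fit of log2(RPKM + 1) used the 8 libraries of zygote region 4, 1 cell, 32-64 cells and 256 cells with preparation as a term, and left out 64 h, 96 h and day 3. From 1 cell to 32-64 cells, 3228 of 12961 tested genes (24.9%) fell and 2158 (16.6%) rose at a Benjamini-Hochberg adjusted p under 0.05. Under quantile normalization these counts were 3071 and 3487, so which direction held more genes depended on the scaling. Fewer genes fell without the 1-cell (2018) or the 32-64-cell poly(A) library (1591), and fewer rose without the 1-cell (925) or the 32-64-cell polysome library (791). Among the 7072 genes, 7070 were tested, of which 13.6% fell and 22.8% rose. In this fit the fractions were not scaled to their totals, which differed between the stages. The free, middle and heavy totals were RPKM 407335, 498294 and 252745 on day 1. On day 5 they were 898668, 918364 and 631311, which raises the polysome values of 32-64 cells against 1 cell.

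Of the lower genes 485 were tested, and 433 fell, none rose and 52 were not called. Their median fitted log2 change was -3.28 (quartiles -4.08 and -2.16, median standard error 0.52). Of the 154 higher genes, all tested, 123 rose, 1 fell and 30 were not called, with a median of 2.51 (quartiles 1.43 and 4.04, median standard error 0.49). The median over the 7070 genes was 0.38. Most genes of both groups thus differed between the stages before and after the step in the same direction as over the step. These differences exceeded the disagreement across stages that the preparations left after the preparation term.

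By origin, 306 of 325 maternal lower genes fell, with a median of -3.71. Of the intermediate genes 84 of 93 fell, with a median of -2.61, and of those low in the oocyte 43 of 67 fell, with a median of -1.76. Of the higher genes, 54 of 62 that were low in the oocyte rose (median 3.81), and 24 of 36 maternal genes rose (median 1.68). Of the 45 lower genes raised in region 3 and at 64 h, 21 fell, with a median of -0.94. Without them, 412 of 440 tested lower genes fell.

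Of the named genes, ASU_06141 fell by 4.67 on the log2 scale (standard error 0.60, limma adjusted p = 2.676e-05) and ASU_10777 rose by 4.18 (0.52, adjusted p = 2.195e-05). ASU_14638 rose by 3.51 (0.52, limma adjusted p = 8.089e-05), ASU_02332 by 3.86 (0.53, adjusted p = 4.844e-05) and ASU_03393 by 2.65 (0.49, adjusted p = 0.0004975). ASU_11875 fell by 2.57 (0.45, limma adjusted p = 0.0003192), but with the heavy fraction alone as the polysome value its change was -1.12 with an adjusted p of 0.2518. ASU_03884 rose by 1.98 (0.50, limma adjusted p = 0.004837), and without the 32-64-cell polysome library its change was 1.49 with an adjusted p of 0.1119. The other 4 were not called by limma: ASU_15022 at -0.89 (0.57, adjusted p = 0.2221), ASU_06344 at 0.48 (0.43, adjusted p = 0.3838), ASU_15439 at -0.79 (1.11, adjusted p = 0.5945) and ASU_05245 at 1.23 (0.52, adjusted p = 0.06636). The value of ASU_15439 depended on the 1-cell libraries: without the poly(A) one it was 2.08 (limma adjusted p = 0.003299), and without the polysome one -3.66 (adjusted p = 3.737e-09). Without the 1-cell polysome library, limma also called ASU_15022 at -1.64 (adjusted p = 0.02805) and ASU_05245 at 1.70 (adjusted p = 0.04278). Under quantile normalization limma called ASU_06344 at 1.33 (adjusted p = 0.0127) and ASU_05245 at 1.58 (adjusted p = 0.04051), and at a minimum of RPKM 10 the adjusted p of ASU_05245 was 0.03998.

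**Figure D5:**
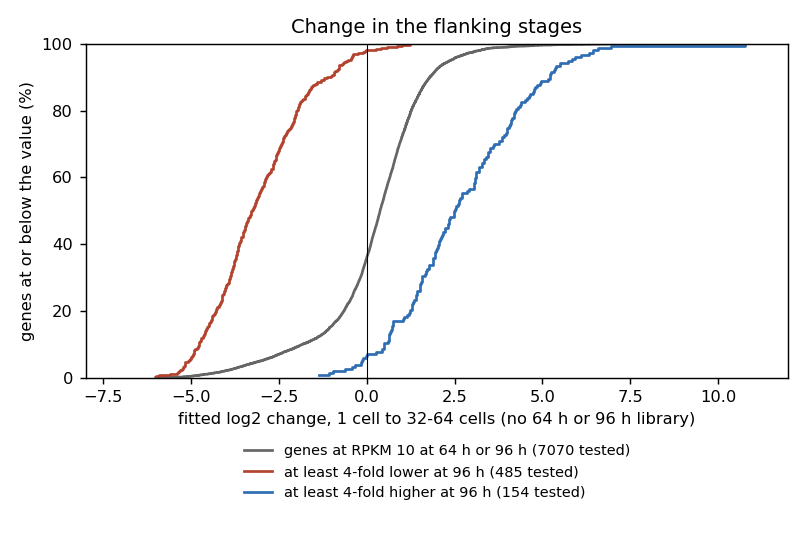
Cumulative share of genes (vertical axis, %) at or below a fitted log2 change from 1 cell to 32-64 cells (horizontal axis), from libraries other than 64 h, 96 h and day 3. The lower genes (red, median -3.28) lie left of the 7070 tested genes at RPKM 10 at 64 h or 96 h (grey, median 0.38) and the higher genes (blue, median 2.51) to the right.

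The fit has 3 residual degrees of freedom, and nothing in the labels says that the 2 preparations of a stage came from separate cultures. The preparation term takes out the mean difference between the 2 preparations. Its p-values thus rest on how far the preparations disagree across stages, and not on a spread between cultures. Leaving out each of the 8 libraries in turn left 351 to 435 lower genes that fell and 90 to 127 higher genes that rose, against 433 and 123 with all 8 libraries. The fewest lower genes fell without the 32-64-cell poly(A) library, and the fewest higher genes rose without the 32-64-cell polysome library.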

How the data were processed

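Poly(A) RNA and polysome gradient RNA of Ascaris suum were sequenced, and 18 of the 28 samples had a column in the deposited table. The other 10 were not analysed here. The table holds RPKM values, made by the authors and deposited to 1 decimal for 15399 identifiers. Per the submitters' processing notes, Bowtie 0.12.7 was among the tools. The build of the genome, its annotation and the counter were not given in the sources used here. Depth is unknown, so no counting interval was computed. Columns were matched to samples by name. The oocyte and 64 h columns were assigned to poly(A) libraries by inference from the table being of mRNAs. The genes and comparisons were chosen with earlier results of these data known.

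Differences were taken on log2(RPKM + 1), with a pseudocount of 1, a minimum of RPKM 10 in either library and a 4-fold threshold that includes exactly 4-fold. This scale makes folds of low genes smaller than those of RPKM. A polysome value was the mean RPKM of 3 fractions, whereas 1 value per day had been planned for. The flanking stages were fitted with limma 3.58.1 in R 4.3.3, with an intensity trend, on genes at RPKM 1 in at least 2 of the 8 libraries. Its p-values were adjusted by Benjamini-Hochberg over every gene in the fit. A run on simulated data without a difference between preparations checked only the median size of the fitted changes. It does not show how the p-values behave in the real libraries. Where the fit leaves out a library, the lone sample of that stage is assumed to vary like the other stages.

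Since identifiers have no names, at most 2 that rose and 2 that fell were named per comparison. They were the 2 largest persisting falls and rises, the 2 lower genes with the largest rise and the 2 higher genes with the largest fall from 96 h to 116 h, the 2 lower genes under RPKM 1 in the oocyte with the highest 64 h level, and the 2 higher genes at RPKM 10 in the oocyte with the lowest. Alternatives covered the pseudocount, the RPKM minimum, the fold, the scaling, the libraries compared and, in the fit, each library left out.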

Additional observations from a re-analysis of the deposited data

How the results depend on the processing

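Over the 64 h to 96 h step, a pseudocount of 5 gave 208 lower and 64 higher genes, of which 203 and 45 persisted at 116 h. A minimum of RPKM 20 gave 322 lower genes. A 2-fold rule gave 1114 lower and 1003 higher genes, and an 8-fold rule 130 and 55. With 46 h in place of 64 h, 917 genes were lower, and with 116 h in place of 96 h, 811 were lower and 270 higher. Other scalings gave 378 to 546 lower and 117 to 158 higher genes. The persisting share stayed between 93.1% and 97.6% for lower and between 68.9% and 76.5% for higher genes in the alternatives that recomputed both sets. Between flanking stages, the number of fallen genes was 1872 at a minimum of RPKM 10 and 1533 with the heavy fraction as the polysome value. It ran from 1591 (without the 32-64-cell poly(A) library) to 3528 with 1 library left out, and was 2018 without the 1-cell poly(A) library. The number of risen genes was 3487 under quantile normalization, 3284 under median-ratio scaling, 1192 without the preparation term and 1125 with the heavy fraction. It ran from 791 (without the 32-64-cell polysome library) to 2245 with 1 library left out, and was 925 without the 1-cell polysome library. Fitted changes that turned sign with 1 library left out were those of ASU_15439, from -3.66 (without the 1-cell polysome library) to 2.08 (without the 1-cell poly(A) library), with 0.32 without the 32-64-cell poly(A) library. That of ASU_06344 ran from -0.16 to 1.13 and was negative without the 1-cell polysome library, and that of ASU_15022 ran from -1.80 to 0.012 and was positive without the 32-64-cell poly(A) library. The cause of these differences was not tested. No paired analysis was possible because each stage has 1 library per preparation and the labels give no replicate numbers. Depth is unknown, so what counting error allows at low RPKM could not be given.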
